A study of Mus musculus with 6 samples.

Results

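The translation factors described here were 58 of the 13912 genes measured in 4T1-Luc2-RFP cells, a mouse mammary carcinoma line of BALB/c origin with genes for luciferase and a red fluorescent protein. They were taken by symbol, as every gene named Eif or Eef followed by a digit, which matched 59 symbols, and Eef1e1 was left out because its product belongs to the aminoacyl-tRNA synthetase complex. The 58 comprised 51 initiation factors or regulators and 7 elongation factors or regulators. The first group was made up of 3 RNA-seq libraries of 4T1-Luc2-RFP cells that were sorted by fluorescence from mammary gland tumours grown by the MIND (mouse intraductal) method, and the titles of all 3 begin with Right. The second group was made up of 3 libraries of the same line in culture, never injected and not labelled as sorted. Both groups carried the same reporters, and no drug or gene deletion was named for either. Nothing in the labels ties the 3 libraries of either group to different animals or culture dishes, so p-values cover the variation among these libraries alone, and this could be technical.

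Translation begins when eIF2 delivers the initiator tRNA to the small ribosomal subunit, eIF3 and the eIF4F cap-binding complex bring that subunit to the mRNA, and eIF1, eIF1A and eIF5 help it select the start codon. eIF5B then joins the large subunit, after which eEF1A delivers aminoacyl-tRNAs, eEF2 moves the ribosome along and eIF5A relieves stalled peptide bonds. In carcinoma cells the pathway is best known for its control by mTORC1, which phosphorylates the eIF4E-binding proteins, and by kinases that phosphorylate eIF2 alpha under stress.

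Libraries held 39851109, 41469090 and 40323680 reads in the tumour group and 39736276, 40680703 and 35448588 reads in the cultured group. Over the 58 members, log2 levels correlated at 0.995 to 0.999 between tumour libraries, 0.979 to 0.990 between cultured libraries and 0.816 to 0.856 between the groups, as a description across genes that share libraries. The range between the groups includes Eif4e3, with 0 reads in all cultured libraries and a log2 change of 10.4. It was not computed without that gene, so it does not describe the other members alone. Over all genes the range between the groups was 0.674 to 0.754. Of 21 epithelial markers tested, 10 were lower in tumour libraries and 1 was higher, and their summed level was 3058 to 3538 CPM (reads scaled to library size) in tumour libraries and 3424 to 4148 CPM in cultured libraries. Markers of host cells were far above culture in the libraries labelled as sorted tumour cells. The 17 macrophage and monocyte markers summed to 7377 to 11008 CPM in tumour libraries and 28.4 to 39.1 CPM in cultured libraries, and all 17 were called higher. The 10 neutrophil markers summed to 1582 to 5231 CPM against 86.3 to 101 CPM, with Retnlg and Mmp8 at 0 reads in culture, and the 12 fibroblast markers to 7633 to 9137 CPM against 643 to 1063 CPM, with Dpt at 0. The 10 endothelial markers summed to 116 to 170.3 CPM in tumour libraries and 10.8 to 15.8 CPM in cultured libraries, with Emcn and Erg at 0 in culture, and the 4 lymphocyte markers tested summed to 5.39 to 6.36 CPM in tumour libraries and at most 0.0221 CPM in culture. In bulk RNA, fewer cells of a type and less RNA per cell cannot be told apart, and the part of host RNA in the results below was not tested. Changes are given as deposited and, for members called lower and for others where stated, also with the libraries set to an equal median over the 21 epithelial markers. This setting, named the epithelial scaling from here on, adds 1.02 on the log2 scale to every tumour minus cultured change and leaves 4 members, Eif1ad, Eif2b3, Eif4ebp1 and Eif6, with a negative one. The size of the shift depends on how the marker list is summarised, since the markers' own changes had a median of only -0.47. Set to an equal median deviation of the markers from their means, the libraries shifted by 0.59, and set to an equal marker sum by 0.14, both measures chosen after seeing the data.

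Of the 58 translation factor genes, 47 had a negative log2 change, tumour minus cultured, as deposited, with a median of -0.29 over all members, while the same median was 0.72 on the epithelial scaling. By limma with Benjamini-Hochberg adjustment over all 13912 genes, 15 members were lower in tumour libraries (25.9%), against a background of 18.8% of all genes called lower. Only 3 were higher (5.17%), against 29.5% of all genes, and the other 40 were not called. All but 1 of the members averaged at least 3 on the log2 CPM scale, and among the 9445 genes at that level 24.2% were called lower and 18.9% higher, with a median change of -0.11. Against genes of like level, then, the share called lower was close to the background and the share called higher was below it. All 3 tumour libraries lay below all 3 cultured libraries in 22 members (37.9%) and above them in 5 (8.62%), where the shares were 25.2% and 34.6% over all genes and 32.2% and 23.9% over genes of like level. All 15 members called lower and all 3 called higher were among the 51 grouped here as initiation factors or regulators, with a median change of -0.41 over the 51. That grouping holds Eif4a3, the exon junction complex member of its family. None of the 7 elongation members was called by limma as deposited, none had an unadjusted p under 0.05, and their median change was -0.15. On the epithelial scaling 5 of the 7 (Eef1a1, Eef1b2, Eef1g, Eef2k and Eef2kmt) were called higher, with limma adjusted p from 0.0136 to 0.0449, and 23 of the 51 initiation members, while 0 elongation members were called by the other 2 marker summaries. On the epithelial scaling, 28 members were called higher and 0 lower, beside 63.9% and 1.64% of all genes, and 11 of the 15 members called lower as deposited had a positive change. By the median deviation of the markers, 9 members were called higher and 3 lower (Eif1ad, Eif2b3 and Eif6), beside 46.1% and 4.48% of all genes, with a median of 0.30, and of the 15 only Eif4e had a positive change, of 0.028. By the marker sum, 4 were called higher and 12 lower, beside 31.0% and 13.1% of all genes, with a median of -0.16, and all of the 15 had a negative change. The turns of direction given below for members called lower therefore hold for the marker median alone, except for Eif4e, which was also positive by the median deviation.

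**Figure D1:**
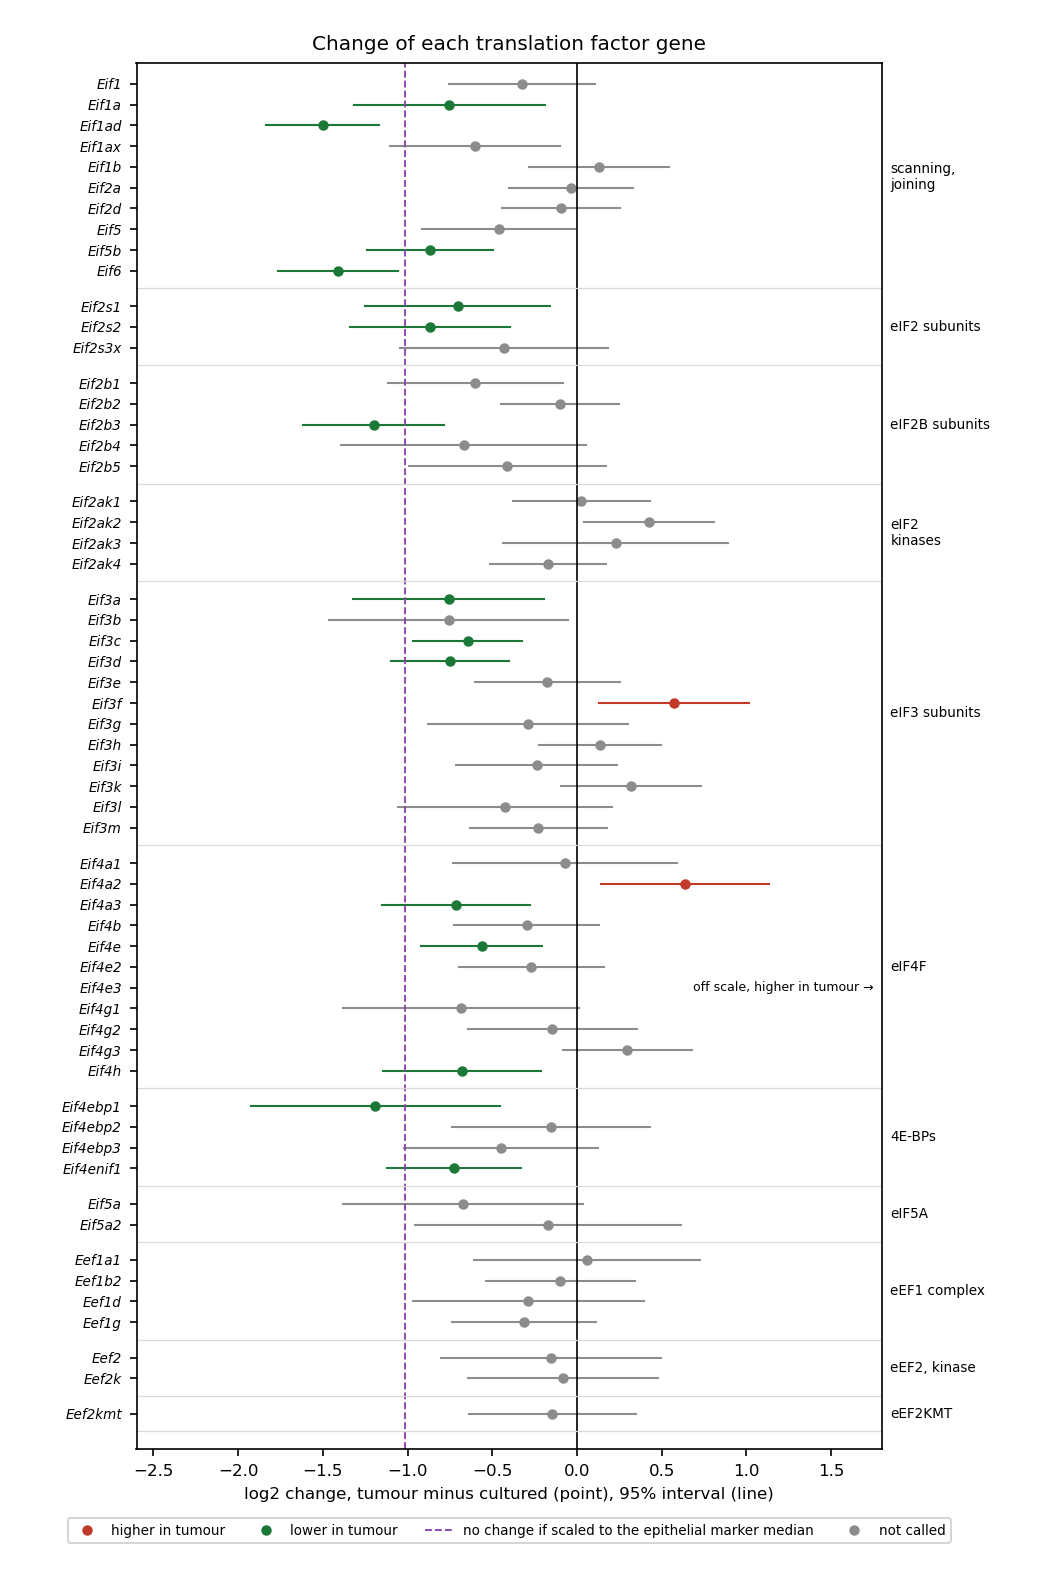
Log2 change, tumour minus cultured, of each of the 58 members by limma on the deposited values (points) with 95% intervals (lines), grouped by role; Eif4e3, with 0 reads in culture, is off the scale. Points left of the black line had a negative change as deposited (47 members), and the dashed line at -1.02 marks where no change would lie with libraries set to an equal epithelial marker median, which leaves 4 members (Eif1ad, Eif6, Eif2b3 and Eif4ebp1) to its left.

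Promoter sequence, which the choice by name did not use, was searched for 6 motifs on both strands, none of which contains another. RefSeq promoter windows, each 250 bases before to 50 bases after an annotated start on GRCm38.p6, were at hand for 46 of the 58 members, and 12 of the 46 (26.1%) held the E-box CACGTG, a palindrome and so the same on both strands, which MYC and related factors are known to bind. The motif was in 11.6% of the 10510 tested genes with a window and in 7.15% of all 32851 windows. It stood in 3 of 11 members called lower and 9 of the 35 others. The ETS motif CCGGAAGT, on either strand, was in 9 of 46 (19.6%), against 8.55% of tested genes. The interferon response element was in 4 (8.70%, against 3.82% of tested genes), the genes Eif2ak2, Eif2s1, Eif2s3x and Eif3a. The amino acid response element TGATGNAAN was in 2 (4.35%, against 2.94%), the cyclic AMP response element TGACGTCA in 1 (2.17%, against 3.54%) and the NRF1 motif in 1 (2.17%, against 2.21%). The windows shown are of a holder called higher (Eif3f), holders called lower (Eif4e and Eif4h) and an elongation factor that was not called (Eef2). Each runs 5′ to 3′ from 100 bases before to 20 bases after the start, on the strand of the gene, with the E-box in capitals.
Eif3f (chr7:108934315-108934434, plus strand): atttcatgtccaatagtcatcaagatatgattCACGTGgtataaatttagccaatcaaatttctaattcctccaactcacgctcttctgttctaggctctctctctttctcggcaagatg
Eif4e (chr3:138527168-138527287, plus strand): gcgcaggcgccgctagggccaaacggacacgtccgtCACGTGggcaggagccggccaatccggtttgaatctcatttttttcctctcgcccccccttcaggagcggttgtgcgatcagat
Eif4h (chr5:134639390-134639509, minus strand): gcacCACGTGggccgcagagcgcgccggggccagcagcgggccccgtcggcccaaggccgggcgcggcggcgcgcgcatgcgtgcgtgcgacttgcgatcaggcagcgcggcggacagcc
Eef2 (chr10:81176531-81176650, plus strand): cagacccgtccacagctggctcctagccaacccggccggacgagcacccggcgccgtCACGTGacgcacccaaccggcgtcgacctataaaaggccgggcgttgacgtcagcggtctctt
The first base of the E-box shown lies 68, 64, 96 and 43 bases before the start in Eif3f, Eif4e, Eif4h and Eef2. The full window of this Eif4e start held another E-box, 228 bases before it and outside the stretch shown. A further annotated start of Eif4e had no E-box. Genes, members and background alike, counted as holding a motif where any of their windows held it. A match is a description of these letters and does not show that a factor binds there.

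Among the 10 members grouped here under start codon scanning and subunit joining, 4 were lower in tumour libraries as deposited and none was higher. On the epithelial scaling Eif1a and Eif5b of the 4 turned positive. The median change of the class was -0.53. The 2 members with the most negative change of all 58 were here. Eif1ad, which encodes an eIF1A-like domain protein (chr19:5366741-5371526 on GRCm38), had 36.0, 38.2 and 33.8 CPM in tumour libraries 1, 2 and 3, against 93.0, 101 and 112 CPM in cultured libraries 1, 2 and 3. Every tumour library was far below the lowest cultured library, and the log2 change was -1.50 (standard error, SE, 0.14, limma adjusted p = 8.36e-05). It stayed negative, though no longer called, on the epithelial scaling (-0.48, limma adjusted p = 0.118). Eif6, the anti-association factor that keeps the large subunit from joining and also serves in its biogenesis (chr2:155819832-155826925), had 132, 163 and 140.5 CPM in tumour libraries and 358, 376 and 424 CPM in cultured libraries. The groups did not overlap, and its change of -1.41 (SE 0.15, limma adjusted p = 1.65e-04) became -0.39 on the epithelial scaling. Eif5b, the GTPase that joins the subunits, had 169.9, 178 and 171 CPM in tumour libraries and 275, 304 and 376 CPM in cultured libraries, a change of -0.87 as deposited (limma adjusted p = 0.00304) that turned to 0.15 on the epithelial scaling. Eif1a, one of the genes for eIF1A, had 139, 138 and 144 CPM in tumour libraries and 316, 162 and 259 CPM in cultured libraries. Cultured library 2 came nearest to the tumour level, and the change of -0.75 (limma adjusted p = 0.0351; 0.26 on the epithelial scaling) was no longer called without tumour library 1, 2 or 3 or cultured library 1 or 3 (limma adjusted p from 0.0616 to 0.0973).

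The 6 other members of this class were not called as deposited. The X-linked eIF1A gene Eif1ax had 89.8, 104 and 95.2 CPM in tumour libraries and 130.5, 119 and 202 CPM in cultured libraries, without overlap, at a limma adjusted p of 0.0503. Eif5, which activates the GTPase of eIF2, had 598, 426 and 615 CPM in tumour libraries and 780.2, 726 and 724 CPM in cultured libraries, also without overlap (limma adjusted p = 0.0845). Eif1, the gatekeeper of start codon fidelity, had 376, 376 and 369 CPM in tumour libraries and 486, 561 and 374 CPM in cultured libraries, where cultured library 3 lay within the tumour range. Its close relative Eif1b had 39.5, 41.4 and 35.9 CPM in tumour libraries and 34.6, 42.6 and 30.3 CPM in cultured libraries, and these overlapped. Within a library, where the scaling between libraries cancels, the log2 ratio of Eif1b to Eif1 was -3.25, -3.18 and -3.36 in tumour libraries and -3.81, -3.72 and -3.63 in cultured libraries, so Eif1b made up more of the pair in all 3 tumour libraries. Eif2a and Eif2d, which encode alternative initiator tRNA carriers, had tumour minus cultured differences of -0.04 and -0.10 as deposited and 0.98 and 0.92 on the epithelial scaling, with overlapping groups. The summed level of the class was 1739.99 ± 65.4 CPM in tumour libraries and 2654 ± 70.0 CPM in cultured libraries (SD, n = 3 each; exact permutation p = 0.1, the smallest that 3 against 3 allows).

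The ternary complex of eIF2, GTP and initiator tRNA was represented by 3 eIF2 subunits, 5 subunits of its exchange factor eIF2B and the 4 eIF2 alpha kinases. As deposited, 3 of the 8 subunits of eIF2 and eIF2B were called lower in tumour libraries, of which Eif2s1 and Eif2s2 turned positive on the epithelial scaling, and none of the kinases was called. The GTPase-bearing gamma subunit gene Eif2s3x had 17.2, 17.6 and 17.9 CPM in tumour libraries and 21.5, 17.8 and 34.9 CPM in cultured libraries, and was not called (limma adjusted p = 0.212). Eif2s2, the beta subunit, had 91.1, 95.5 and 94.9 CPM in tumour libraries and 223, 131 and 173 CPM in cultured libraries. The tumour libraries lay close together and below every cultured library, with a change of -0.87 as deposited (SE 0.20, limma adjusted p = 0.00926) and 0.15 on the epithelial scaling. Eif2s1, the alpha subunit that carries the regulatory serine, had 184, 218 and 187 CPM in tumour libraries and 300.2, 243 and 447 CPM in cultured libraries. The groups did not overlap, and the change of -0.71 (limma adjusted p = 0.0390; 0.31 on the epithelial scaling) was not called without tumour library 1, 2 or 3 or cultured library 1 (limma adjusted p from 0.0676 to 0.122).

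Of the eIF2B subunits, which recycle eIF2 to its GTP-bound form, Eif2b3 (gamma, the partner of the catalytic subunit, chr4:117019402-117087306) stood out. It had 25.7, 30.8 and 27.4 CPM in tumour libraries and 55.4, 77.6 and 61.1 CPM in cultured libraries, so the highest tumour library was well below the lowest cultured one. The change was -1.20 (SE 0.18, limma adjusted p = 1.003e-03) as deposited and -0.18, still negative but not called, on the epithelial scaling. The catalytic epsilon subunit Eif2b5 had 80.7, 89.4 and 78.8 CPM in tumour libraries and 111, 77.0 and 156 CPM in cultured libraries, and these overlapped. Eif2b1, Eif2b2 and Eif2b4 (alpha, beta and delta) had differences of -0.60, -0.10 and -0.67 as deposited, none of them past the test, and 0.42, 0.92 and 0.35 on the epithelial scaling. The fit without cultured library 2 newly called 7 members of the family lower as deposited. Among them were Eif2b1 (-0.78, limma adjusted p = 0.0197), Eif2b4 (-0.97, 0.0225) and Eif2b5 (-0.67, 0.0269, against -0.41 with all libraries). With all libraries 1 of the 5 subunits was called, and the share of all genes called in the smaller fit is not given here. Cultured library 3 was the highest of the cultured libraries for Eif2b1, Eif2b2, Eif2b4 and Eif2b5, and cultured library 2 for Eif2b3.

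The kinases that phosphorylate eIF2 alpha had the only class median above 0 as deposited, at 0.13. Eif2ak2 (PKR, which double-stranded RNA activates and interferon induces) had 71.0, 66.9 and 65.8 CPM in tumour libraries and 60.7, 48.5 and 43.8 CPM in cultured libraries. Tumour libraries were all above culture, with a change of 0.43 and a limma adjusted p of 0.0658 that missed the threshold as deposited and was 4.66e-04 on the epithelial scaling. Eif2ak3 (PERK, of the endoplasmic reticulum) had 35.6, 28.6 and 34.1 CPM in tumour libraries and 36.4, 33.4 and 17.8 CPM in cultured libraries, with cultured library 3 alone far below the rest. Eif2ak1 (HRI, the haem-regulated kinase) had 49.5, 46.2 and 43.6 CPM in tumour libraries and 44.6, 38.7 and 55.0 CPM in cultured libraries. Eif2ak4 (GCN2, which senses uncharged tRNA) had 43.5, 40.3 and 43.2 CPM in tumour libraries and 47.2, 43.4 and 52.8 CPM in cultured libraries, where cultured library 2 lay within the tumour range. Their changes of 0.23, 0.02 and -0.17 were not called by limma (adjusted p = 0.540, 0.920 and 0.369). On the epithelial scaling all 4 kinases were called higher, as were 63.9% of all genes. Eif2ak1 and Eif2ak4 were called higher by that marker summary alone.

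The 12 subunits of eIF3, the largest initiation factor and the platform on which the small subunit, eIF4G and the mRNA meet, had calls in both directions. As deposited, Eif3a, Eif3c and Eif3d were lower in tumour libraries and Eif3f was higher, and on the epithelial scaling Eif3f was again higher while the other 3 turned positive without a call. The remaining 8 were not called as deposited. Eif3d, which can itself bind the cap of some mRNAs, had 215, 251 and 225 CPM in tumour libraries and 368, 364 and 431 CPM in cultured libraries, a change of -0.75 (SE 0.15, limma adjusted p = 0.00454; 0.27 on the epithelial scaling). Of its annotated 50-base words, 37.2% also occurred in another gene, so its count depends on how shared reads were treated. Eif3c, a core scaffold subunit, had 313, 334 and 318 CPM in tumour libraries and 491, 505 and 513 CPM in cultured libraries, with narrow, separate groups (-0.64, limma adjusted p = 0.00625; 0.37 on the epithelial scaling). Eif3a, the largest subunit, had 672, 663 and 666 CPM in tumour libraries and 1471, 812 and 1201 CPM in cultured libraries. The tumour libraries were almost equal while the cultured ones were widely spread, and the change of -0.76 (limma adjusted p = 0.0340; 0.26 on the epithelial scaling) was not called without tumour library 1, 2 or 3 or cultured library 1 (limma adjusted p from 0.0814 to 0.111).

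Eif3f, an MPN-domain subunit (chr7:108934417-108942951), had 222, 243 and 239 CPM in tumour libraries and 124, 196 and 161 CPM in cultured libraries. All tumour libraries were above all cultured ones, and the change was 0.57 (SE 0.19, limma adjusted p = 0.0386), but it was not called without tumour library 1, 2 or 3 or cultured library 1 (limma adjusted p from 0.0864 to 0.120). Eif3h, the other MPN-domain subunit, had 325, 369 and 363 CPM in tumour libraries and 282, 341 and 343 CPM in cultured libraries, which overlapped. Eif3k, a peripheral PCI-domain subunit, had 163, 184 and 183 CPM in tumour libraries and 115, 142 and 172 CPM in cultured libraries, also with overlap. Eif3e, known in mouse as the Int6 site of mammary tumour virus insertion, had 431, 507 and 486 CPM in tumour libraries and 440.2, 563 and 616 CPM in cultured libraries, and its change of -0.17 was not called as deposited (0.84 on the epithelial scaling). Eif3b, Eif3g, Eif3i, Eif3l and Eif3m had differences of -0.76, -0.29, -0.24, -0.42 and -0.23 as deposited, where none passed the test, and of 0.26, 0.73, 0.78, 0.59 and 0.79 on the epithelial scaling.

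To set the subunits against each other without any scaling between libraries, each was also expressed relative to the median eIF3 subunit of its own library, a measure chosen after the data were seen. On this log2 scale Eif3f stood at -0.20, -0.25 and -0.13 in tumour libraries and -1.38, -0.84 and -1.25 in cultured libraries, a difference of 0.97. Eif3k stood at -0.65, -0.65 and -0.51 in tumour libraries and -1.48, -1.31 and -1.16 in cultured libraries, a difference of 0.71. Eif3h and Eif3e were also relatively higher in every tumour library, by 0.53 and 0.22. Eif3d (-0.36) and Eif3c (-0.25) were relatively lower in every tumour library, and the other 6 subunits overlapped. Separate groups were common, as 34.6% of all genes lay higher and 25.2% lower in every tumour library as deposited. Relative to the median of all members, 16 members lay higher and 8 lower in every tumour library, and 34 overlapped. No share was computed for genes outside eIF3 on the eIF3 scale, so this pattern is not read as a trait of the complex. In every cultured library the middle subunits were Eif3d and Eif3h, and their mean was the reference. Their cultured values therefore mirror each other and are not independent. The middle subunits were Eif3b and Eif3f in tumour libraries 1 and 3, and Eif3c and Eif3d in tumour library 2. Their values in those libraries mirror each other likewise, and the reference rests on different subunits in the 2 groups. As background, Eif3e, Eif3f, Eif3h and Eif3k all belong to the PCI and MPN core of the complex, and so do Eif3a, Eif3c, Eif3l and Eif3m, which were not relatively higher.

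**Figure D2:**
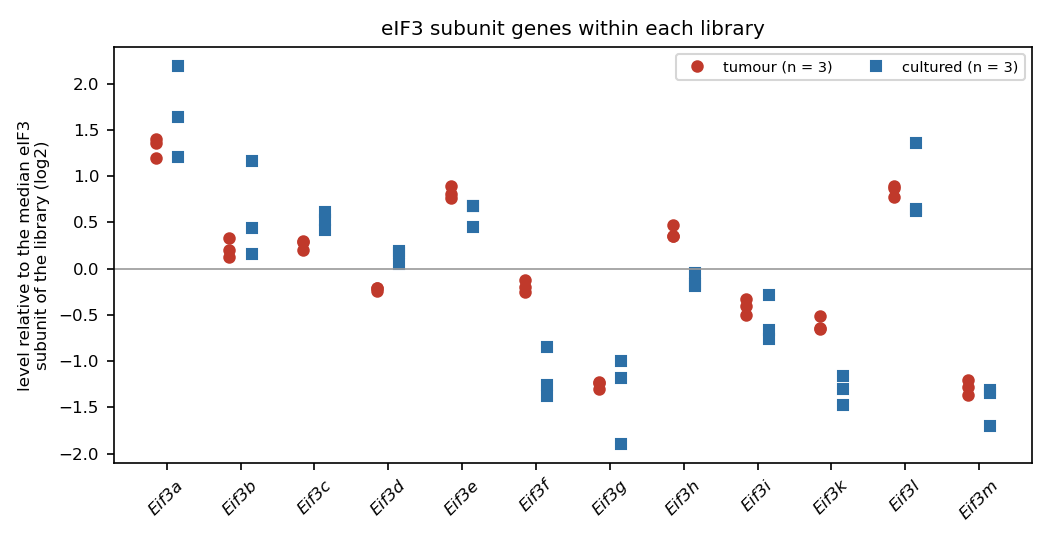
Level of each of the 12 eIF3 subunit genes relative to the median subunit of the same library, on the log2 scale, for tumour (circles) and cultured (squares) libraries. Eif3f, Eif3k, Eif3h and Eif3e sit higher in all 3 tumour libraries, Eif3c and Eif3d lower, and the scaling between libraries does not enter these values.

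The eIF4F class, with 11 members, had 3 lower and 2 higher in tumour libraries as deposited, and on the epithelial scaling the 3 turned positive and the 2 were again higher. Eif4e3, which encodes a cap-binding relative of eIF4E (chr6:99625135-99666771), was read at 19.7, 12.5 and 18.9 CPM in tumour libraries and at 0 reads in all 3 cultured libraries. Set against a floor of 3 reads over the cultured group, its pooled tumour level of 16.9 CPM was at least 691-fold higher (limma adjusted p = 9.57e-07). It was one of 525 genes (3.77% of all tested) with 0 reads throughout culture, a group that also held the host markers Retnlg, Mmp8, Dpt, Emcn and Erg, and the part of host RNA in its tumour level was not tested. Eif4e, the principal cap-binding protein, had 106, 109 and 115 CPM in tumour libraries and 160.4, 141 and 189 CPM in cultured libraries. The groups were separate, and the change of -0.56 (limma adjusted p = 0.0185; 0.46 on the epithelial scaling) was not called without tumour library 1, 2 or 3 (limma adjusted p from 0.0567 to 0.0821). Eif4e2, the homologue that acts with GIGYF proteins in repression, had 97.0, 107 and 98.5 CPM in tumour libraries and 109, 104 and 156 CPM in cultured libraries, which overlapped.

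Of the DEAD-box helicases, Eif4a2 had 386, 351 and 408 CPM in tumour libraries and 256, 184 and 314 CPM in cultured libraries. Every tumour library was above every cultured one, with a change of 0.63 (SE 0.21, limma adjusted p = 0.0408) that was not called without tumour library 1, 2 or 3 or cultured library 1 or 2 (limma adjusted p from 0.0751 to 0.136). Eif4a1, the main helicase of eIF4F in most cells, had 202, 220.1 and 214 CPM in tumour libraries and 195, 159.6 and 356 CPM in cultured libraries, and the tumour range lay within the cultured one. Eif4a3, the exon junction complex member of the family, had 90.4, 110.4 and 91.1 CPM in tumour libraries and 145, 138 and 201 CPM in cultured libraries, a change of -0.72 (limma adjusted p = 0.0155; 0.30 on the epithelial scaling) that was not called without tumour library 1 or 3 (limma adjusted p from 0.0666 to 0.0682). Among the helicase helpers, Eif4h had 334, 423 and 316 CPM in tumour libraries and 538, 489.6 and 695 CPM in cultured libraries (-0.68, limma adjusted p = 0.0246; 0.34 on the epithelial scaling), a call lost without tumour library 1 or 3 (limma adjusted p from 0.0999 to 0.114). Eif4b, which stimulates the helicase and is a target of S6 kinase, had a difference of -0.30 as deposited (0.72 on the epithelial scaling) and was not called as deposited. In these genes, 28.4% of the 50-base words of Eif4a1 also occurred in other genes, against 13.6% in Eif4a2 and 16.5% in Eif4a3.

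The scaffold eIF4G1, which holds the cap-binding protein, the helicase and eIF3 together, had 564, 635 and 538 CPM of Eif4g1 in tumour libraries and 781, 689 and 1497 CPM in cultured libraries. The groups were separate but cultured library 3 was well above the others, and the change of -0.69 was not called (limma adjusted p = 0.0941; 0.33 on the epithelial scaling). Eif4g3, its paralogue, had 273, 239 and 263 CPM in tumour libraries and 234, 227 and 175 CPM in cultured libraries, separate and higher in tumour libraries but not called (limma adjusted p = 0.173). Eif4g2 (DAP5), a relative that lacks the eIF4E-binding part, had 1190.5, 1182 and 1186 CPM in tumour libraries and 1249, 1093 and 1653 CPM in cultured libraries, which overlapped.

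Ratios of related factors within a library do not depend on the scaling, and 11 such ratios were compared. In 7 of them the groups did not overlap, and each then had an exact two-sided permutation p of 0.1, the smallest possible. The adjusted p was 0.157 over the 11, so none could pass. Separate groups were common in these data, as 34.6% of all genes lay higher and 25.2% lower in every tumour library. No share was computed over other pairs of genes, so the count of 7 is not read as a trait of these pairs. The log2 ratio of Eif4a2 to Eif4a1 was 0.93, 0.68 and 0.93 in tumour libraries and 0.39, 0.21 and -0.18 in cultured libraries, a difference of 0.71, with the ratio higher in every tumour library. The ratio of Eif4a3 to Eif4a1 went the other way, at -1.16, -0.996 and -1.23 in tumour libraries and -0.43, -0.21 and -0.82 in cultured libraries. Eif4g3 to Eif4g1 stood at -1.05, -1.41 and -1.03 in tumour libraries and -1.74, -1.60 and -3.10 in cultured libraries, and Eif4g2 to Eif4g1 differed by 0.54. Both G1 ratios were thus higher in every tumour library, with cultured library 3 the lowest of all. Eif4e2 to Eif4e differed by 0.29, and for Eif4e3 to Eif4e no size is given because Eif4e3 had 0 reads in culture. Eif4ebp2 to Eif4ebp1, Eif5a2 to Eif5a, Eef2k to Eef2 and Eif4ebp1 to Eif4e overlapped between the groups.

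**Figure D3:**
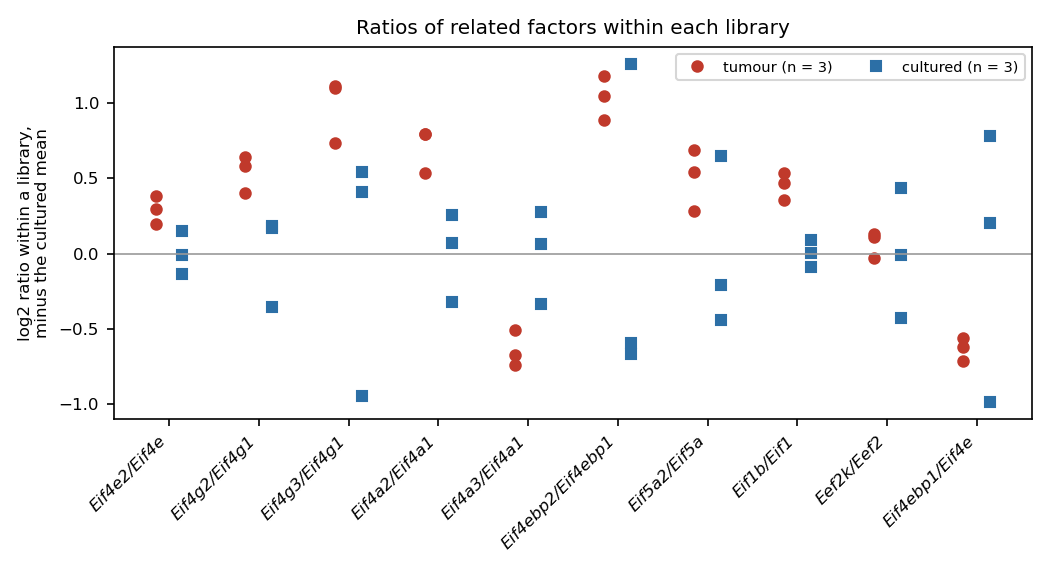
Within-library log2 ratios of 10 pairs of related factors (Eif4e3 to Eif4e is left out because Eif4e3 had 0 reads in culture), each shown minus the mean of the cultured libraries, for tumour (circles) and cultured (squares) libraries. Eif4a2 to Eif4a1, Eif4g2 and Eif4g3 to Eif4g1, Eif1b to Eif1 and Eif4e2 to Eif4e lie higher in all 3 tumour libraries, and Eif4a3 to Eif4a1 lower.

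The eIF4E-binding proteins, which compete with eIF4G for the cap-binding protein when mTORC1 is inactive, had 2 of 4 members lower in tumour libraries as deposited, of which Eif4enif1 turned positive on the epithelial scaling. Eif4ebp1 had 118, 117 and 115 CPM in tumour libraries and 303, 397 and 157 CPM in cultured libraries. The tumour libraries were nearly equal, cultured library 3 came within reach of them and cultured library 2 was the highest, and the change was -1.19 (SE 0.32, limma adjusted p = 0.0162). It was -0.17, still negative but not called, on the epithelial scaling, and as deposited it was not called without tumour library 2 or 3 or cultured library 1 (limma adjusted p from 0.0513 to 0.0551). Eif4enif1 (4E-T), which carries eIF4E into the nucleus and to repressed mRNAs, had 98.6, 114 and 98.4 CPM in tumour libraries and 186, 139.6 and 193 CPM in cultured libraries (-0.73, limma adjusted p = 0.00966; 0.29 on the epithelial scaling). Eif4ebp2 had 49.3, 53.7 and 43.1 CPM in tumour libraries and 38.7, 53.4 and 76.1 CPM in cultured libraries, which overlapped. Eif4ebp3 had 8.79, 6.15 and 8.41 CPM in tumour libraries and 9.67, 12.6 and 9.47 CPM in cultured libraries, without overlap and not called (limma adjusted p = 0.172), and 65.5% of its 50-base words occurred in another annotated gene. The sum of the class was 277 ± 13.3 CPM in tumour libraries and 525 ± 84.5 CPM in cultured libraries, a ratio of 0.527 as deposited, and the smallest ratio of any class.

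The elongation genes included the 2 with the highest level per length in the family. None of the 7 was called as deposited, against 5 called higher on the epithelial scaling, where 63.9% of all genes were called higher. Per kilobase of annotated exon, Eef1a1, the tRNA-delivering GTPase, was at 1986 ± 104 CPM per kb in tumour libraries and 1929.9 ± 383 CPM per kb in cultured libraries (SD, n = 3 each). Eef2, the translocase, was at 1639 ± 137 CPM per kb in tumour libraries and 1819.6 ± 34.7 CPM per kb in cultured libraries. These 2 led the family in both groups, ahead of Eif5a and the exchange factor subunit gene Eef1b2 on the same scale. By library, Eef1a1 had 4696, 5216 and 4939 CPM in tumour libraries and 4004, 4565 and 5865 CPM in cultured libraries, and the tumour range lay within the cultured one. Eef2 had 5044, 5939 and 5363 CPM in tumour libraries and 5936, 6043 and 6166 CPM in cultured libraries, where tumour library 2 reached the lowest cultured value. The 95% interval of the log2 change was -0.61 to 0.72 for Eef1a1 and -0.80 to 0.49 for Eef2 as deposited, so changes within those bounds were not resolved. Of the 50-base words of Eef1a1, 40.4% occurred in 21 other annotated genes, and of those of Eef1g 44.2% in other genes, and how the counting treated reads shared between genes was not tested.

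The eEF1B subunits Eef1b2, Eef1d and Eef1g had differences of -0.10, -0.29 and -0.31 as deposited and 0.92, 0.73 and 0.70 on the epithelial scaling, with overlapping groups in all 3. Eef2k, the kinase that halts eEF2, had 21.4, 22.6 and 22.4 CPM in tumour libraries and 17.1, 31.6 and 23.8 CPM in cultured libraries, with the tumour libraries inside the cultured range. Eef2kmt, a methyltransferase of eEF2, had a difference of -0.15 and was not called as deposited (0.87 on the epithelial scaling). Eif5a, whose product carries the hypusine residue and acts in elongation as well as initiation, had 855, 1084 and 914 CPM in tumour libraries and 1247, 1159.6 and 2386 CPM in cultured libraries. All tumour values were below culture, cultured library 3 was well above the others, and the change of -0.68 was not called (limma adjusted p = 0.104; 0.34 on the epithelial scaling). Its paralogue Eif5a2 had 11.8, 13.5 and 9.55 CPM in tumour libraries and 7.86, 15.6 and 17.7 CPM in cultured libraries, the lowest level per kilobase of the family in the tumour libraries. Summed over the 7 elongation members, the level was 11825 ± 861 CPM in tumour libraries and 12479.8 ± 1357 CPM in cultured libraries, and over the 51 initiation members 11463 ± 457 CPM in tumour libraries and 15805 ± 2858 CPM in cultured libraries (SD, n = 3 each).

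**Figure D4:**
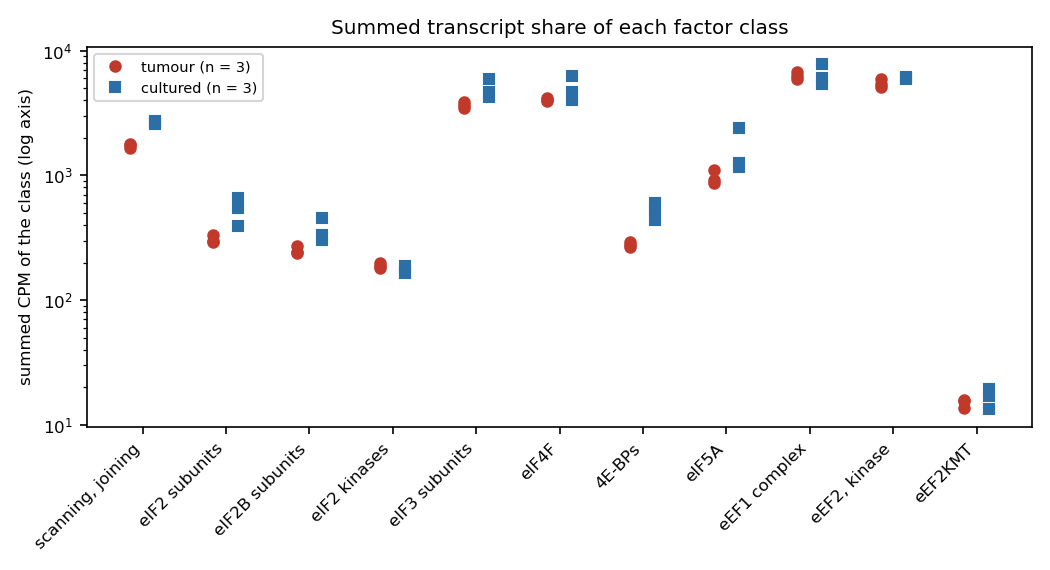
Summed CPM of each factor class in each tumour (circles) and cultured (squares) library, on a log axis. Scanning and joining factors, eIF2, eIF2B, eIF3, the eIF4E-binding proteins and eIF5A lie lower in all 3 tumour libraries as deposited, while eEF1 and the eIF2 alpha kinases overlap; on the epithelial scaling the ratio of means was above 1 in every class.

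Libraries of 1 group also differed from each other across the family. Over the members, cultured library 3 had a median excess of 0.33 (log2) above the other cultured libraries and was the highest of the 3 in 41 members, against a median of 0.04 over the 9445 genes at the members' level. Tumour library 2 exceeded the other tumour libraries by a median of 0.13 and was the highest in 42 members, against 0.06 over the same genes. The SD between tumour libraries had a median of 0.11 over members and 0.12 over those genes, and between cultured libraries 0.28 and 0.31. Without cultured library 3 the median change of the members was -0.15 in place of -0.29, with 16 members called lower and 4 higher. Leaving out tumour library 1 gave 9 members called lower and leaving out tumour library 3 gave 8, and the count called higher was 1 without any one of the tumour libraries. Without cultured library 2, 7 members not called with all libraries were called lower (Eif1ax, Eif2b1, Eif2b4, Eif2b5, Eif3b, Eif3g and Eif4g1; limma adjusted p from 0.0197 to 0.0487), for 22 in all. Without cultured library 3, Eif1 and Eif1ax were newly called lower and Eif3k higher, and without cultured library 1 Eif2ak2 was newly called higher. A fit on fewer libraries can change the calls of any gene. The share of all genes called in each of these fits is not given here, so these counts are not read as a trait of the family. Eif1ad, Eif2b3, Eif2s2, Eif3c, Eif3d, Eif4enif1, Eif5b and Eif6 were called lower as deposited and under all 13 alternatives other than those that scale to epithelial markers.

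**Figure D5:**
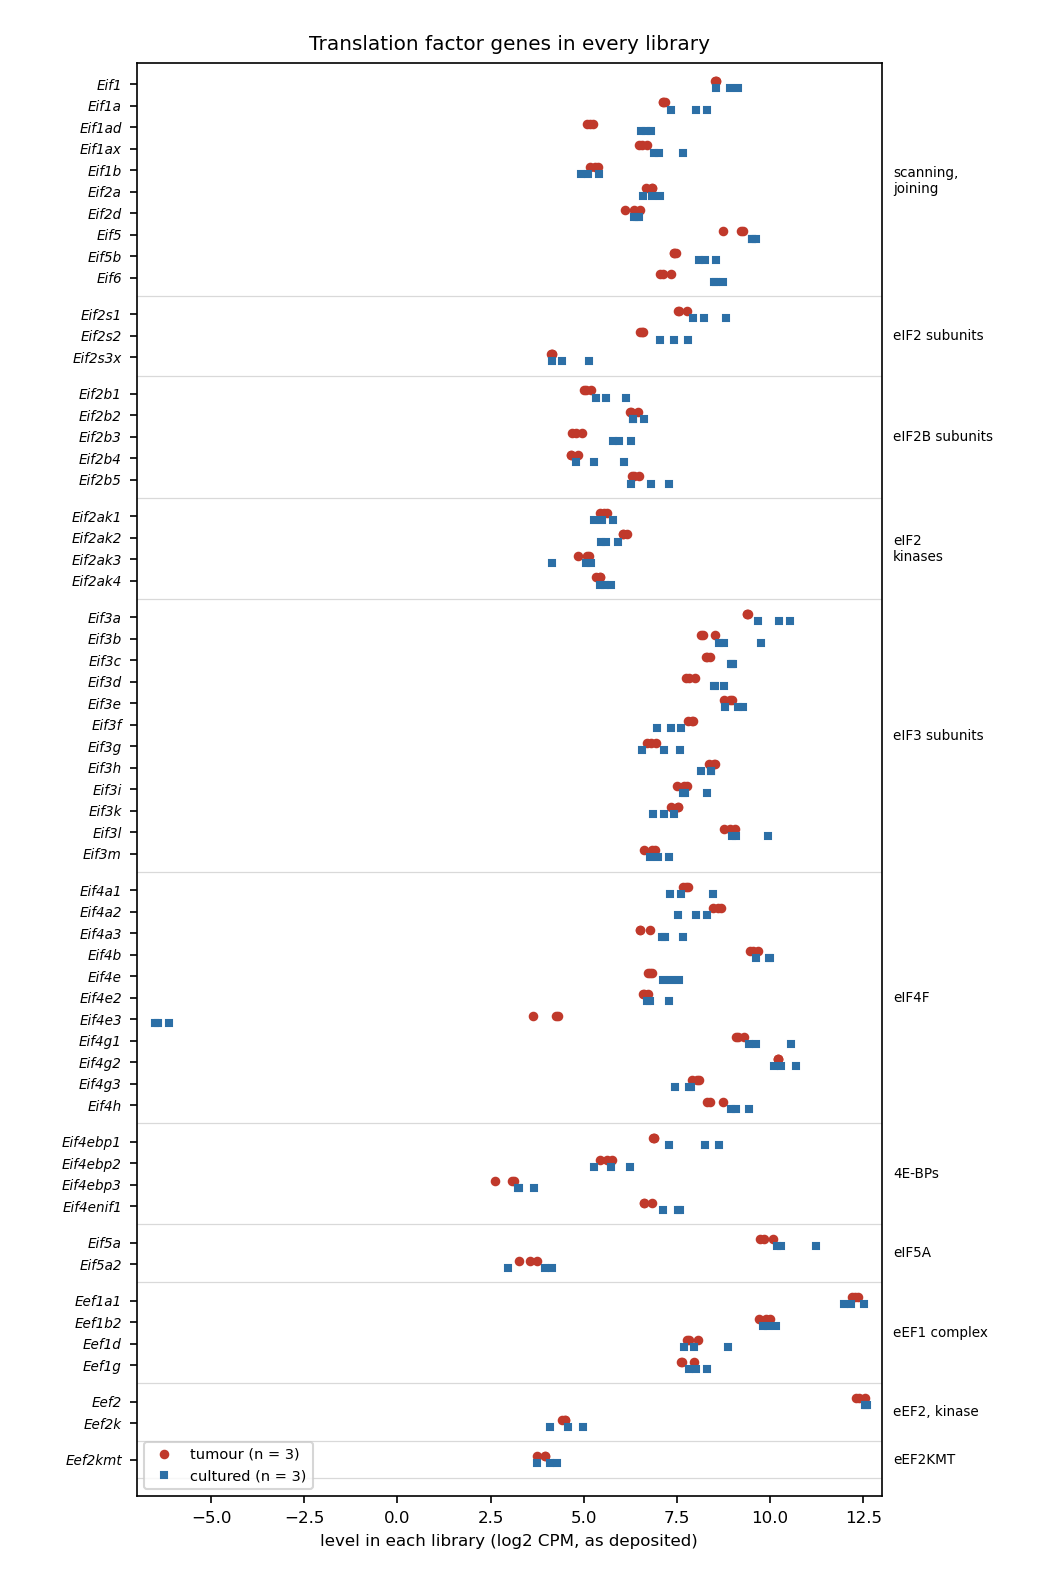
Deposited log2 CPM of all 58 members in each tumour (circles) and cultured (squares) library, grouped by role. Eef1a1 and Eef2 sit at the right end in both groups, Eif4e3 is at the value of 0 reads in all 3 cultured libraries, and for most members the tumour libraries lie closer together than the cultured ones.

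A set of 78 further genes of translation and its control, in 8 lists, showed 28 lower and 8 higher in tumour libraries as deposited, with a median change of -0.40, and 0 lower and 32 higher (41.0%) on the epithelial scaling. The counts as deposited stand beside 18.8% and 29.5% of all genes called lower and higher, and those on the epithelial scaling beside 1.64% and 63.9%. By the median deviation of the markers, 3 of the 78 were lower and 21 higher, and by the marker sum 16 were lower and 10 higher. All 9 factors of termination and recycling passed the test, 6 lower and 3 higher as deposited. Abce1, the ATPase that splits terminated ribosomes, averaged 8.08 ± 0.13 log2 CPM in tumour libraries and 9.60 ± 0.15 log2 CPM in cultured libraries (SD, n = 3 each), a change of -1.52 (limma adjusted p = 1.60e-04) that was -0.50 on the epithelial scaling. Gspt1 and Denr, a release factor and a recycling factor, changed by -0.97 and -1.04 as deposited and 0.05 and -0.02 on the epithelial scaling. Gspt2, the paralogue of Gspt1, had 0 reads in culture and averaged 1.32 ± 0.65 log2 CPM in tumour libraries. Of 8 poly(A)-binding proteins and partners, 4 were lower as deposited. They were the poly(A)-binding protein gene Pabpc4 (-0.70; 0.32 on the epithelial scaling), Paip2b, an inhibitor of such proteins (-0.97; 0.04), Larp1, a binder of TOP mRNAs under mTORC1 (-0.81; 0.21), and Larp4 (-1.20; -0.18).

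In the list of mTORC1, S6 kinase and MNK signalling, 4 of 17 were lower and 2 higher as deposited. Mknk2, a kinase of eIF4E, averaged 7.95 ± 0.27 log2 CPM in tumour libraries and 6.41 ± 0.42 log2 CPM in cultured libraries, higher by 1.54 (limma adjusted p = 0.00135). Deptor, an inhibitor of mTOR, was higher by 0.90, while Rps6kb1, the S6 kinase, and Rheb, the activator of mTORC1, changed by -0.78 and -0.62 as deposited and 0.24 and 0.40 on the epithelial scaling. Of 7 regulators and targets of eIF2 phosphorylation, Impact, an inhibitor of GCN2 (1.86), and Dnajc3, an inhibitor of PKR and PERK (0.93), were higher and none was lower. The diphthamide pathway, which modifies eEF2, supplied the called genes of the hypusine and diphthamide list that are named here, with 5 of 9 on the list lower as deposited, among them Dph2 (-1.37; -0.35 on the epithelial scaling), Dph5 (-1.18; -0.16), Dph1 (-0.84; 0.17) and Dph7 (-0.63; 0.39). Of 11 mitochondrial translation factors 3 were lower as deposited, the release factor gene Mtrf1l (-0.94; 0.07 on the epithelial scaling), the elongation factor gene Tsfm (-0.82; 0.20) and the recycling factor gene Gfm2 (-0.47; 0.55). Among 10 helicases and mRNA-bound regulators, Gigyf1, a partner of Eif4e2, was higher (0.68), while Dhx29, a helicase for structured mRNAs (-0.83; 0.19 on the epithelial scaling) and Gigyf2 (-0.58; 0.44) were lower. Of 7 selenocysteine and ribosome-stress factors, Zfp598, a sensor of collided ribosomes (-0.95; 0.07 on the epithelial scaling), Ltn1, a ubiquitin ligase of stalled chains (-0.68; 0.34), its partner Nemf (-0.57; 0.45) and Eefsec, the selenocysteine elongation factor (-0.56; 0.45) were lower and none was higher.

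Markers of other states moved with these values and their part was not tested. The 14 G2/M genes summed to 1265 to 1704 CPM in tumour libraries and 2759 to 4473 CPM in cultured libraries, with 13 called lower. The 14 immediate early genes, a class that tissue dissociation can also induce, summed to 10380.3 to 12928 CPM in tumour libraries and 1104 to 2436 CPM in cultured libraries, with 13 called higher.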

How the data were processed

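Per the submitters' processing notes, reads were aligned with HISAT to mm10, counted with HTSeq and processed with limma; versions were not given in the sources used here. The authors deposited log2 CPM with voom's offset and TMM-scaled library totals, and solving that form gave whole reads, within 0.01, in 100% of cells. CPM here are those reads over the scaled totals. Groups were compared on the deposited log2 values with limma 3.58.1 in R 4.3.3, with a variance trend and Benjamini-Hochberg adjustment at 0.05 over 13912 genes. Count models were not used because the deposited unit is log2. On simulated data with the tumour and cultured library sizes and 13912 genes, the fit called 78% of 2-fold and 100% of 4-fold changes, with 4 false calls. Only 200 genes were changed there, and both groups had the same dispersion of 0.04. In the real data, genes at the members' level had a median SD of 0.12 between tumour libraries and 0.31 between cultured libraries. The simulation therefore checks the fit but does not give its recovery or false calls on these data. At these depths, with at least 250 reads per library for every member but Eif4e3, counting error was small; floors cover counting error only. Library numbers follow the order of the labels and pair nothing.

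Members and lists were chosen with earlier results of these data known. Values in every library were given for up to 12 called members in each direction with the largest change and separate groups, for related pairs and for a set of key factors, and up to 4 called genes of each pathway list were named; other members were added so that all are accounted for. Alternatives were other scalings (library median, quantile, epithelial markers), a mean of at least 1 log2 CPM, log2(CPM + 1), no variance trend, library weights, voom weights and leaving out each library. The other 2 summaries of the epithelial markers, the comparison with genes averaging at least 3 log2 CPM and levels relative to the eIF3 median were added after seeing the data. Gene positions, exon lengths and shared 50-base words were those of GENCODE M21 (GRCm38, which is mm10), and promoters from RefSeq on GRCm38.p6, matched by symbol. Eef1a2, Eif2s3y, Eif3j1, Eif3j2, Eif4e1b and the eEF1A methyltransferases were not analysed here. Plots were drawn with matplotlib 3.10.9.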

Additional observations from a re-analysis of the deposited data

How the results depend on the processing

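The scaling between libraries, and the way the marker list was summarised, set most directions. Scaled to the epithelial marker median (10 of whose 21 members were themselves called lower), the median change of the members was 0.72 and 28 members were called higher and 0 lower by limma (0 with a negative change and unadjusted p under 0.05). The log2 changes there were 0.26 for Eif1a, 0.31 for Eif2s1, 0.15 for Eif2s2, 0.26 for Eif3a, 0.27 for Eif3d, 0.30 for Eif4a3, 0.46 for Eif4e, 0.29 for Eif4enif1 and 0.15 for Eif5b. Among members not called as deposited they were 0.94 for Eef2k, 0.69 for Eif1, 0.85 for Eif2ak4, 0.84 for Eif3e, 0.95 for Eif4a1, 0.75 for Eif4e2, 0.87 for Eif4ebp2, 0.87 for Eif4g2 and 0.85 for Eif5a2. Log2 ratios of summed CPM turned to 0.42 for scanning and joining factors, 0.20 for eIF2, 0.45 for eIF2B, 0.56 for eIF3, 0.11 for eIF4E-binding proteins, 0.22 for eIF5A, 0.53 for all initiation members and 0.72 for all members. By the median deviation of the markers, a setting chosen after seeing the data, the median was 0.30 with 9 higher and 3 lower, and Eif4e was at 0.028; by the marker sum, also chosen after seeing the data, it was -0.16 with 4 higher and 12 lower. Centred on library medians, 25 were lower and 1 higher with a median of -0.52, beside 27.6% and 25.5% of all genes and their median of -0.14, and by quantile normalization 26 were lower, also with a median of -0.52, beside 39.6% of all genes and their median of -0.32; without the variance trend 1 was higher. Leaving out 1 library in turn gave 8 to 22 members lower, 1 to 4 higher and a median of -0.39 to -0.15. The shares of all genes called in those fits are not given here, so these counts alone do not describe the family. The low-value filter, log2(CPM + 1), library weights and voom weights kept both counts within 1.5 times. With library weights 22 members were lower and 4 higher, beside 24.8% and 34.1% of all genes. The cause of these shifts was not tested. No paired analysis was possible because the groups share no label numbers. Depth limited little beyond Eif4e3, whose cultured level rests on 0 reads.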
